A study of Mus musculus with 28 samples.

Results

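Adult mouse liver was set against white adipose tissue across all genes on the array. The comparison used 5 of the 28 arrays of the series, chosen by their titles: 2 arrays of adult liver and 3 arrays of white adipose tissue. Both tissues came from untreated wild-type C57BL/6 mice, and the labels call the arrays biological replicates. The age and sex of the mice, the fat depot and the number of animals behind each array were not given in the sources used here. The tests therefore measure a spread between arrays, estimated within all 13 groups of the series together and not from these 5 arrays alone. The wider study grew organoids from Lgr5+ liver cells and profiled 13 groups, among them hepatocytes, injured livers, organoids, muscle, brown adipose tissue and pancreas. On every array the tissue RNA carried the dye Cy3 and a commercial mouse reference RNA (Stratagene) carried Cy5, without a dye swap.

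The hepatocyte of the liver makes most plasma proteins, disposes of ammonia through the urea cycle, forms bile acids and clears foreign compounds. The white adipocyte stores triglyceride in a lipid droplet, releases fatty acids by lipolysis and secretes hormones such as adiponectin and leptin. Both cell types take up glucose and fatty acids, partly through different members of the same protein families. In RNA from whole tissue, fewer cells of a type and less RNA per cell cannot be told apart.

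The level used throughout is the log2 ratio of Cy3 to Cy5 for 1 probe per gene, after background correction and loess normalization within each array. A change is the mean of adult liver minus the mean of white adipose tissue on that log2 scale. A gene was called when its Benjamini-Hochberg adjusted p in limma was below 0.05 and its change was at least 1 log2 unit in either direction. Over the whole array 21047 genes were tested, and 46.8% and 60.9% of the probes on the adult liver arrays were well above background in Cy3, against 50.2%, 45.9% and 52.9% on the white adipose arrays. The 2 adult liver arrays correlated at 0.969 over all tested genes and the white adipose arrays at 0.783 to 0.898, while pairs across tissues correlated at 0.366 to 0.409. No slide and no scan day held both tissues, and all 3 white adipose arrays shared their scan day with the muscle arrays of the study. White adipose array 1 also shared its slide with muscle array 3. The white adipose arrays also carried skeletal muscle markers, unevenly and least on array 2, and the counts with that array alone are given with those markers. With slide as a random block 5827 genes were called, and with scan day as a random block 5671. Since no slide or day held both tissues, these blocks cannot tell a tissue difference from a slide or scan day difference.

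The 3 genes taken as markers of the 2 tissues were looked at first. Cps1, the mitochondrial enzyme that starts the urea cycle, stood at log2 ratios of 9.72 and 9.96 in adult liver, against 0.34, 0.02 and 0.45 in white adipose tissue, a change of 9.56 ± 0.45 (SE; limma adjusted p = 1.8e-12). Its probe lies at chr1:67277466-67277525 in the mm9 coordinates of the array files. Adipoq, which encodes the fat hormone adiponectin, stood at 0.09 and 0.17 in adult liver, against 6.01, 6.10 and 6.05 in white adipose tissue (change -5.92 ± 0.51, limma adjusted p = 8e-09; probe at chr16:23157576-23157635). For both genes every array lay on the side that its label gives. Lep, which encodes leptin, was well above background on none of the adult liver arrays and on all 3 white adipose arrays, but it was dim there. Its log2 ratios were 0.00 and 0.09 in adult liver, against 0.37, 0.12 and 1.76 in white adipose tissue, and the change of -0.71 ± 0.29 was not called (limma adjusted p = 0.051).

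The Cy5 channel held the same reference RNA on all 5 arrays, yet for some genes, very bright ones among them, it differed between the tissues in the direction of the Cy3 channel. Among 17004 genes with Cy5 well above background on all 5 arrays, 2037 had Cy3 intensities at least 2 log2 units apart, and 136 of these had Cy5 at least 2 log2 units apart the same way. None had Cy5 that far apart the opposite way. Among all tested genes, whatever their Cy5 level, 167 were brightest, with a log2 Cy3 of at least 16 in a tissue. Of these, 63 had Cy5 at least 2 log2 units apart the same way as Cy3. Alb, which encodes serum albumin, shows what this did to the ratio. Its Cy3 intensity over local background was 631204 and 377199 in adult liver, against 8362, 669 and 1435 in white adipose tissue, and its Cy5 intensity was 61923 and 46088, against 1436, 79 and 169. The log2 ratio of Alb changed by only 1.36 ± 0.86 and was not called (limma adjusted p = 0.22), whereas Cy3 alone, scaled to the 75th percentile of each array, differed by 8.53 ± 0.89 (adjusted p = 2.7e-07). Among fat genes, Adipoq had a Cy5 difference of -5.08 log2 units, and Cy3 alone gave a change of -9.69 in place of -5.92. What made the reference channel follow the sample was not tested. For named genes whose Cy5 differed by at least 2 log2 units the same way, the change in Cy3 alone is given beside the ratio, on a scale where the median of all genes lay at -0.51, against -0.01 for the ratio.

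**Figure D1:**
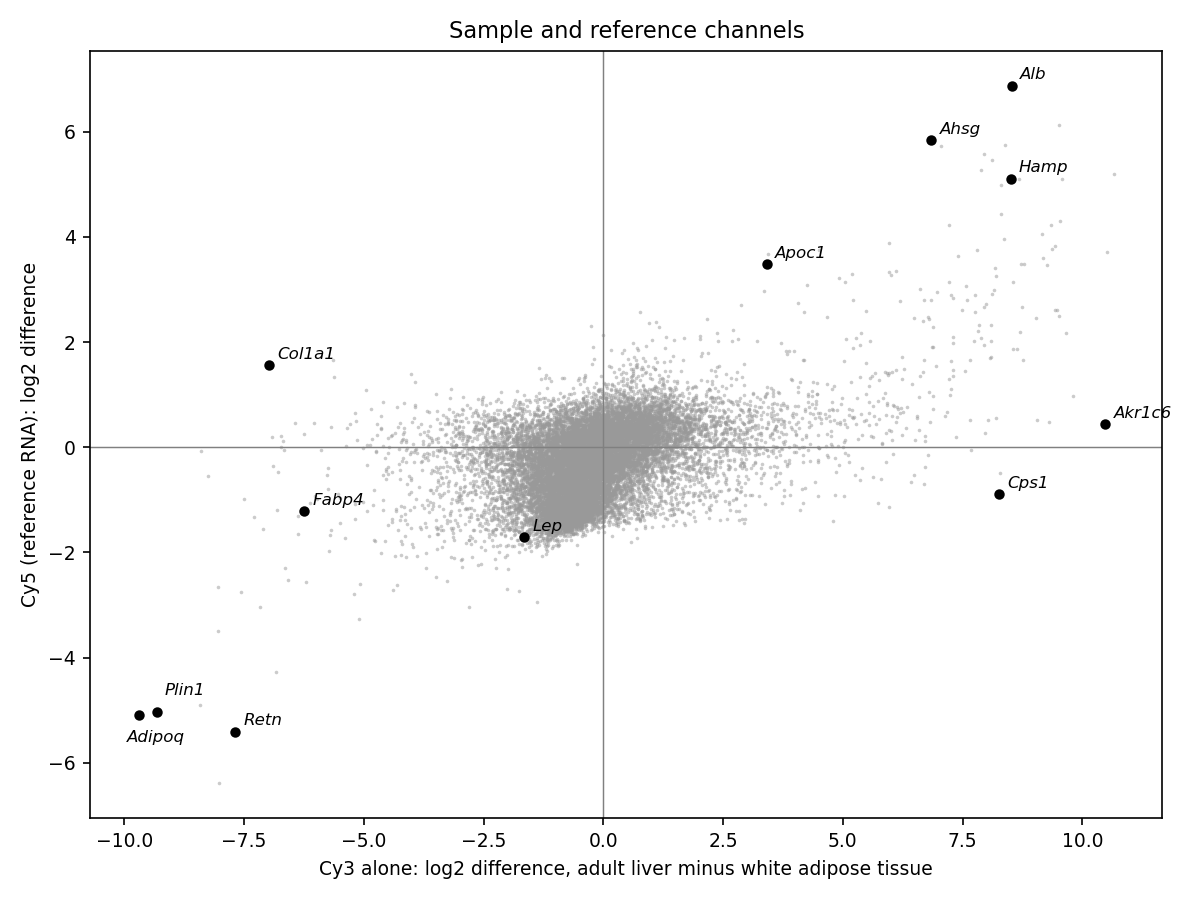
Each point is a gene with Cy5 well above background on all 5 arrays. The horizontal axis is the log2 difference in Cy3 alone and the vertical axis the log2 difference in Cy5 (reference RNA), both adult liver minus white adipose tissue. Named genes are in black, whatever their Cy5 level. Alb lies at 6.87 and Adipoq at -5.08 on the vertical axis, while Akr1c6 lies at 0.43.

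Adult liver and white adipose tissue differed in a large share of the genes measured. Genes of amino acid breakdown, plasma proteins, bile acids and detoxification were higher in adult liver, and genes of the extracellular matrix, the lipid droplet and adipocyte identity were lower. Of the 21047 genes 5859 were called (27.8%), 2825 higher in adult liver (13.4%) and 3034 lower (14.4%). By Cy3 alone 2557 were higher and 4065 lower, and 4264 genes were called the same way by both measures, with 6 called in opposite directions. The arrays of the 2 tissues did not overlap for 13463 genes (64.0%), and 5761 of the called genes were among these. Large changes were mostly in the direction of liver: 480 genes were called higher by at least 4 log2 units and 144 lower by at least 4. Of the 480, 221 were above background on no white adipose array, and of the 144, 24 were above background on no adult liver array.

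**Figure D2:**
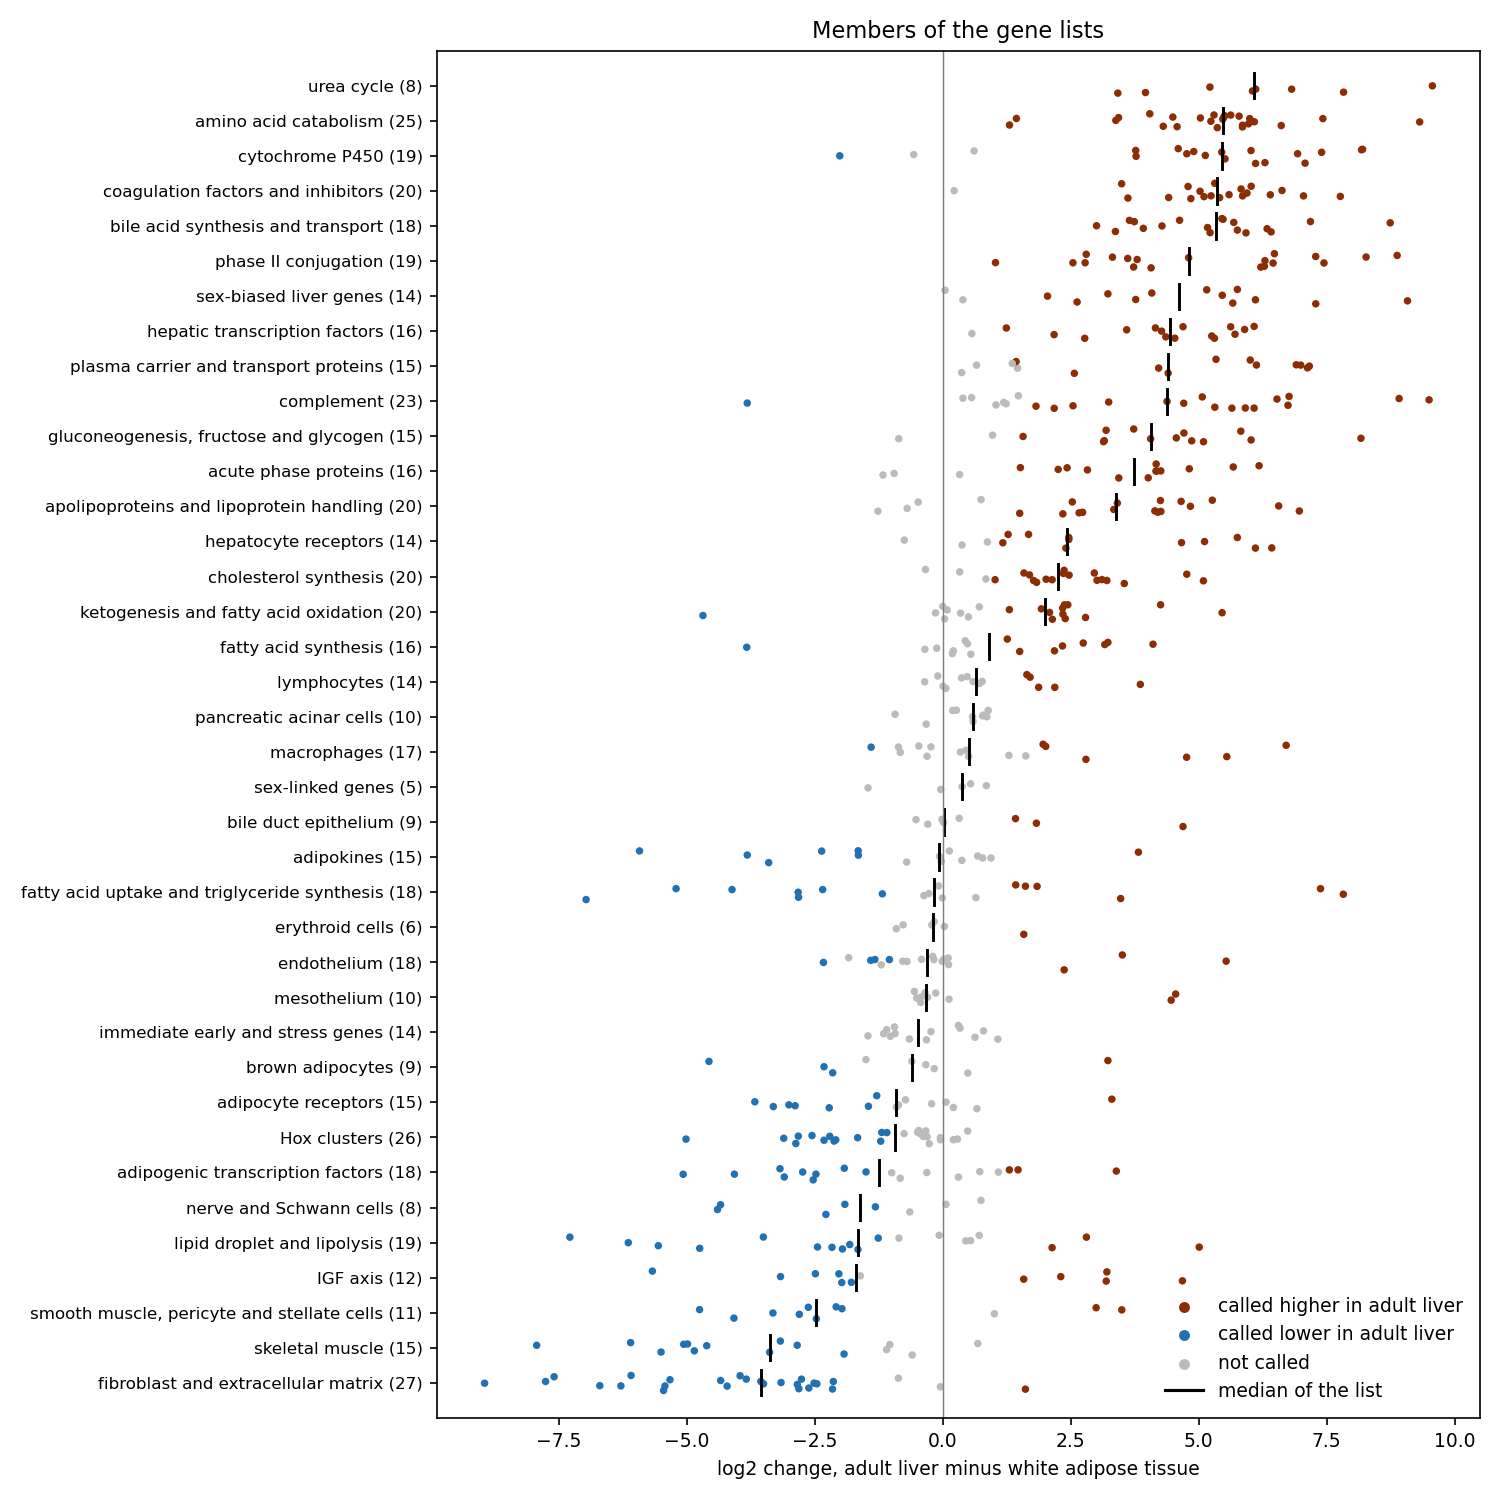
Each row is a gene list with the number of members tested, and each point is a member at its log2 change, adult liver minus white adipose tissue. Red points were called higher in adult liver, blue points lower, and grey points were not called, with the list median as a black bar. The urea cycle, amino acid, coagulation and bile acid lists lie almost wholly to the right, and the fibroblast and matrix list to the left, with a median of -3.56.

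The largest rises were genes known from hepatocytes, among them enzymes, carriers and secreted proteins. Akr1c6, a hydroxysteroid dehydrogenase of the aldo-keto reductase family, stood at log2 ratios of 9.95 and 10.14 in adult liver, against -0.08, -0.04 and -0.34 in white adipose tissue (change 10.20 ± 0.46, limma adjusted p = 1.2e-12). It was well above background on no white adipose array, and Cy3 alone gave a change of 10.48 ± 0.52. For such a gene the dim side holds background, so its change depends on how the background was handled. Next came Rgn, which encodes the calcium-binding protein regucalcin, with a change of 9.70, then Cps1, then Cfi, the complement factor I protease, with 9.50. Also among the 12 largest rises were Cyp3a41a (9.08), C4bp (8.92), Ugt2b5 (8.88), Aadac (8.79), Slco1b2 (8.74), Mup10 (8.63) and Ugt2a3 (8.57), which encode a cytochrome P450, a complement regulator, glucuronosyltransferases, an esterase, an uptake carrier and a major urinary protein. Genes were ranked only where the arrays of the tissues did not overlap and every array of the higher tissue was well above background. A second probe of C4bp changed by 0.09. Mup10 and Cyp3a41a belong to families of near-identical copies, so their probes may also bind transcripts of other copies.

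The largest falls included genes of connective tissue, of fat and of skeletal muscle. Col1a1, a chain of type I collagen, stood at -6.26 and -5.36 in adult liver, against 2.99, 3.17 and 3.26 in white adipose tissue (change -8.95 ± 0.32, limma adjusted p = 5.7e-14). Itm2a, which encodes a membrane protein, changed by -8.50, Col3a1 by -7.76 and Col1a2 by -7.59. Dlk1, the preadipocyte factor that holds back adipocyte differentiation, stood at -4.01 and -3.65 in adult liver, against 3.44, 3.52 and 3.87 in white adipose tissue (change -7.44). Cav1, the main protein of caveolae, which are abundant in adipocytes, changed by -7.29, and Lpl, the lipase that releases fatty acids from circulating triglyceride, by -6.97. The other falls of this rank were Myl1 (-7.93), a myosin light chain of skeletal muscle, Fstl1 (-7.27), Apcdd1 (-6.90), Fndc1 (-6.74) and Rgcc (-6.74). Myl1 varied widely among the white adipose arrays, at 6.66, 2.72 and 6.12. On the muscle arrays of the study Itm2a, Dlk1, Fndc1, Col1a1 and Myl1 averaged higher than in white adipose tissue. Itm2a averaged 7.24 in muscle, against 6.14, and Dlk1 4.30, against 3.61. The other falls of this rank averaged lower in muscle, such as Lpl with 2.37, against 5.27. These muscle levels were not tested. Several of these genes had other probes that disagreed with the brightest one: the probes of Col1a1 ranged from -8.95 to -2.53, of Col3a1 from -7.76 to -0.05, of Col1a2 from -7.59 to -0.75, of Apcdd1 from -6.90 to 0.15 and of Fndc1 from -6.74 to 0.36.

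**Figure D3:**
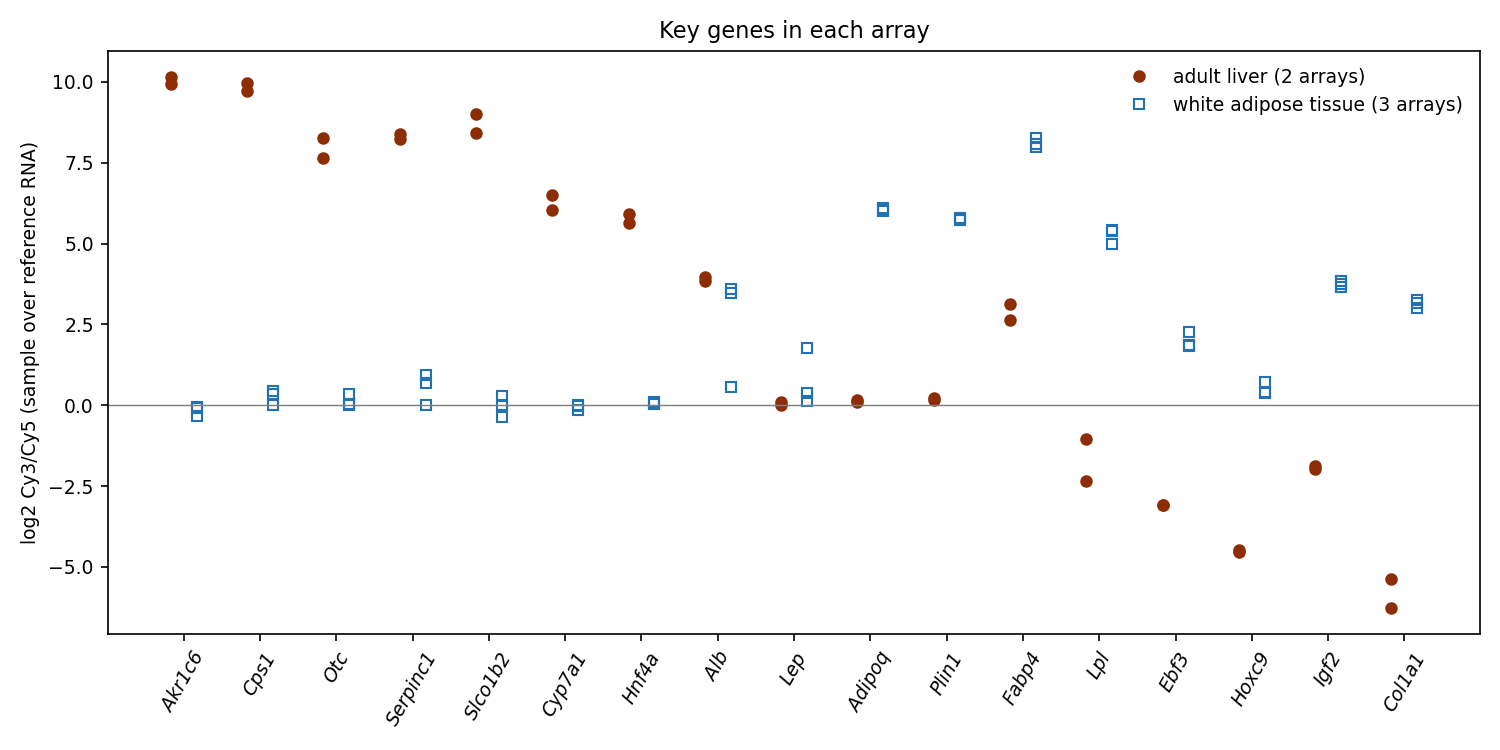
Log2 Cy3/Cy5 ratio (sample over reference RNA) of 17 genes on each array, with filled circles for the 2 adult liver arrays and open squares for the 3 white adipose arrays. From Akr1c6 to Hnf4a the adult liver arrays lie far above white adipose tissue, and from Adipoq to Col1a1 far below. Alb and Lep are the genes where the ratio separates the tissues least.

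The enzymes of nitrogen disposal were higher in adult liver without exception. All 8 urea cycle genes and all 25 genes of amino acid catabolism tested were called higher, against 13.4% of all genes, with median changes of 6.08 and 5.47, against a median of -0.01 over all genes. Otc, ornithine transcarbamylase, stood at 7.66 and 8.27 in adult liver, against 0.01, 0.04 and 0.36 in white adipose tissue, where no array was well above background (change 7.83 ± 0.49, Cy3 alone 6.70). Nags, which makes the activator of Cps1, changed by 6.82 ± 0.28 (limma adjusted p = 2.6e-13). Arg1, the arginase that releases urea, changed by 6.11 (Cy3 alone 7.89). In these 3 genes the lowest adult liver array lay more than 5 log2 units above the highest white adipose array. Among the genes of amino acid breakdown, Aass, the first enzyme of lysine breakdown, changed by 7.43 and Amdhd1, of the histidine pathway, by 6.61. The summed Cy3 intensity of the 8 urea cycle genes was 278997 and 194078 in adult liver, against 2739, 2640 and 2591 in white adipose tissue.

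Plasma proteins were higher in adult liver, from clotting factors to lipid carriers. Of 20 coagulation factors and inhibitors 19 were called higher (median 5.36), of 23 complement genes 16, of 20 genes of apolipoproteins and lipoprotein handling 16, of 16 acute phase genes 13, and of 15 carrier proteins 11. The only member of these 5 lists called lower was Cfd, the adipocyte protease adipsin, which sits on the complement list. By Cy3 alone all 15 carrier proteins were called higher, among them Alb, and 18 of the 20 apolipoprotein genes. Serpinc1, which encodes antithrombin, stood at 8.23 and 8.39 in adult liver, against 0.95, -0.01 and 0.69 in white adipose tissue (change 7.77 ± 0.58, limma adjusted p = 1.2e-09; Cy3 alone 9.65). Fga, the alpha chain of fibrinogen, stood at 7.16 and 6.33 in adult liver, against 0.19, 0.10 and 0.06 in white adipose tissue, a change of 6.63. Both factors separated the tissues on every array. Apob, the scaffold of very low density lipoprotein, changed by 6.56, Apoh by 7.16, the haem scavenger Hpx by 7.12 (Cy3 alone 9.52), the vitamin D carrier Gc by 6.99 (Cy3 alone 9.47) and Apof, a minor apolipoprotein, by 6.97. Among acute phase genes Itih3 changed by 6.18, Saa4 by 5.68 and Orm1 by 4.82. The metallothioneins Mt1 and Mt2, metal binding proteins on the same list, were not called (changes of -0.95 and -1.17).

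Apoc1 and the genes around it on that list show the limit of the ratio. Apoc1, a small apolipoprotein, stood at 5.60 and 5.28 in adult liver, against 6.05, 6.12 and 6.23 in white adipose tissue, a change of -0.70 that was not called (limma adjusted p = 0.37). By Cy3 alone Apoc1 was called higher by 3.41 ± 0.62 (adjusted p = 0.00018), since its Cy3 intensity was 613022 and 407279 in adult liver, against 91220, 89481 and 77702 in white adipose tissue. Ahsg, the plasma protein fetuin-A, behaved likewise, with a ratio change of 0.66 and a change of 6.84 by Cy3 alone. Signal of liver plasma proteins on the white adipose arrays was uneven: Ahsg had Cy3 intensities of 17274, 1228 and 4554 there, and Alb 8362, 669 and 1435, with white adipose array 1 the highest for both. At much lower intensities, array 1 was also the highest for enzymes and a carrier among the 12 largest rises. Cps1 had 220, 128 and 84 on those arrays, Cyp3a41a 278, 128 and 109, and Slco1b2 215, 117 and 82. Akr1c6, which stayed between 100 and 108, was the only one of the 12 largest rises where array 1 was not the highest.

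Enzymes that act on foreign compounds and on bile acids were higher in adult liver throughout. Of 19 cytochrome P450 genes 16 were called higher (median 5.45), and all 19 genes of phase II conjugation and all 18 of bile acid synthesis and transport were called higher (medians of 4.80 and 5.34). Cyp7a1, the rate-limiting enzyme of bile acid synthesis, stood at 6.51 and 6.05 in adult liver, against 0.01, -0.02 and -0.16 in white adipose tissue, where no array was well above background (change 6.34 ± 0.44, Cy3 alone 4.57). Baat, which joins bile acids to taurine or glycine, changed by 7.18 ± 0.28 (limma adjusted p = 1.2e-13) and Abcb11, the bile salt export pump, by 6.41 (Cy3 alone 8.09). Slco1b2, an organic anion uptake carrier of the hepatocyte, stood at 8.42 and 9.02 in adult liver, against 0.29, 0.00 and -0.36 in white adipose tissue. The arrays of the tissues were far apart for all of these. Cyp2a5, which oxidizes coumarin and nicotine, changed by 8.20 ± 0.68 (Cy3 alone 9.87), Cyp2j5 by 8.18 and Gsta3, a glutathione transferase, by 8.27. A single P450 ran the other way: Cyp1b1, which is mostly expressed outside the liver, stood at -2.86 and -2.79 in adult liver, against -1.11, -0.50 and -0.83 in white adipose tissue (change -2.01 ± 0.22, limma adjusted p = 2.3e-07), though with the whole liver arrays it changed by -0.34 and was not called. Of 14 genes known to differ between male and female mouse livers, 12 were called higher in adult liver.

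Sugar and sterol pathways were also higher in adult liver, but fatty acid synthesis was divided. Of 15 genes of gluconeogenesis, fructose and glycogen metabolism 13 were called higher (median 4.06), and of 20 cholesterol synthesis genes 17 (median 2.25), with none lower in either list. Fbp1, a gluconeogenic phosphatase, changed by 6.02 (Cy3 alone 8.74), and Pcx, the pyruvate carboxylase that both tissues use, by -0.86 without a call. Sc5d, a late enzyme of cholesterol synthesis, stood at 4.60 and 4.51 in adult liver, against -0.71, -0.36 and -0.54 in white adipose tissue (change 5.09 ± 0.28, limma adjusted p = 1.7e-11). Idi1, which acts earlier in that pathway, changed by 3.55. The sterol genes were measurable in both tissues, as 19 of the 20 were above background on all white adipose arrays. In fatty acid synthesis 8 of 16 genes were called higher and 1 lower, against 13.4% and 14.4% of all genes. The count lower was 3 when the whole liver arrays were used. Fads2, a desaturase of polyunsaturated fatty acids, changed by 4.11 and Elovl6, an elongase, by 3.16, whereas Fasn, fatty acid synthase itself, changed by -0.35 and Acaca, acetyl-CoA carboxylase, by -0.12, neither called. The log2 ratios of Fasn were 2.79 and 1.97 in adult liver, against 2.32, 2.52 and 3.34 in white adipose tissue, so the arrays overlapped.

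Fatty acid oxidation and ketone metabolism split by the step. Of 20 genes 12 were called higher and 1 lower (median 2.01), against 13.4% and 14.4% of all genes. Bdh1, which makes hydroxybutyrate, changed by 5.46 ± 0.39. Oxct1, the enzyme with which tissues other than liver burn ketone bodies, was the gene called lower, at -5.31 and -4.24 in adult liver, against -0.36, 0.02 and 0.07 in white adipose tissue (change -4.69 ± 0.31, limma adjusted p = 1.5e-09). The dehydrogenases of the mitochondrial spiral, Acadl and Acadvl, were not called, with changes of -0.14 for Acadl and near 0 for Acadvl, although Acadvl was called higher by 1.42 by Cy3 alone.

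The transcription factors and receptors of the hepatocyte were higher in adult liver as well. Of 16 hepatic transcription factors 15 were called higher (median 4.45), and 12 of the 16 were above background on no white adipose array. Hnf4a, a nuclear receptor at the centre of the hepatocyte network, stood at 5.64 and 5.91 in adult liver, against 0.08, 0.03 and 0.10 in white adipose tissue, where no array was well above background (change 5.71 ± 0.20, Cy3 alone 4.57). Foxa2, a forkhead factor, changed by 6.08, and Nr1h4, the bile acid receptor, by 5.90. Each of them left a gap of more than 5 log2 units between the tissues. Of 14 hepatocyte receptors 11 were called higher, among them Asgr2, a chain of the asialoglycoprotein receptor (6.43), Tfr2 of iron sensing (6.11) and Gcgr, the glucagon receptor (5.75). Lepr, the leptin receptor, changed by -0.75 and was not called, though by Cy3 alone it was 1 of 2 receptors called lower. In the lists from the urea cycle to the hepatic factors in which no member was called lower, limma also gave no member lower at an unadjusted p below 0.05, except Apod (-1.27) among the apolipoproteins.

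Promoter sequences were set beside these changes, since short motifs are known from promoters of liver genes. RefSeq windows of 300 bases (250 before to 50 after the start, GRCm38.p6) were at hand for 13226 of the tested genes. The hexamer GTTAAT, searched on both strands, occurred in the windows of 6.34% of all these genes, 9.40% of those called higher and 5.55% of those called lower. It occurred in 19.4% of the 361 genes called higher by at least 4 log2 units and in 2.02% of the 99 called lower by at least 4. The windows also differ in base composition, with a median GC content of 50.3% in the genes called higher by at least 4, against 59.1% over all genes, and the same letters written backwards, TAATTG, occurred in 13.3% of the genes called higher by at least 4 and in 6.71% of all. Among windows below 50% GC the hexamer occurred in 26.3% of the large rises and in 15.4% of all, and the backwards letters in 22.8% and 15.4%. The HNF4 motif, NGGNCA followed directly by AAGNCC, occurred in 2.22% of the large rises, none of the large falls and 0.643% of all genes, and the PPAR direct repeat, 2 copies of AGGNCA with any base between them, in 2.22%, 1.01% and 0.416%. The C/EBP motif TTGCGNAA occurred in 1.11%, 1.01% and 1.34%. These motifs were each counted on both strands, and a match is a run of letters, not a bound site.

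The 200 bases before the start are printed for 4 liver genes whose window holds the hexamer and, for contrast, for Adipoq, whose window holds none of these motifs, all on the plus strand of GRCm38.p6. Capitals mark the hexamer on either strand and, in Fabp1, also the PPAR repeat. Counted from the start, the hexamer begins at -32 in Alb (chr5:90460670-90460869), -43 in Fga (chr3:83025953-83026152), -66 in Slco1b2 (chr6:141629318-141629517) and -107 in Fabp1 (chr6:71199679-71199878), where the PPAR repeat begins at -67. The Adipoq stretch is chr16:23146336-23146535.
Alb: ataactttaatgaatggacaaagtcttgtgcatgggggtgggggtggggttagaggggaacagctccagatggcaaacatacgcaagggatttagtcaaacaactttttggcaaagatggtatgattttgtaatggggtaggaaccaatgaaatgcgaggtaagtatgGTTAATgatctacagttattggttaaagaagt
Fga: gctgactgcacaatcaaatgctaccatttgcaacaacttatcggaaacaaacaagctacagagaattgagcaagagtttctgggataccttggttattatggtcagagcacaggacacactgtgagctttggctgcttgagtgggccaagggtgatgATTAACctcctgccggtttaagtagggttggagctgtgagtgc
Slco1b2: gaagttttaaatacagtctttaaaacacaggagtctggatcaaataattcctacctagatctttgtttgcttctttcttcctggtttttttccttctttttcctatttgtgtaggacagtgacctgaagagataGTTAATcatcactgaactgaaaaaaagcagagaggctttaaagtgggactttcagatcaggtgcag
Fabp1: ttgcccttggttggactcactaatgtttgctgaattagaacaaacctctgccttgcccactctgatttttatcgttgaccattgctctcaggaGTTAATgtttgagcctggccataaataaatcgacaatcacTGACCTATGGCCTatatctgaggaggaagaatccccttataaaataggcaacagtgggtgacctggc
Adipoq: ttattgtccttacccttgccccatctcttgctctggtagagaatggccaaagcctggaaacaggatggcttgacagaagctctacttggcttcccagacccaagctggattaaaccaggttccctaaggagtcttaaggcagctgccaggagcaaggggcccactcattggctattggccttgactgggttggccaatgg

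Genes of the adipocyte were lower in adult liver, though less uniformly than the liver genes were higher. Of 15 adipokine genes 6 were called lower and 1 higher, of 19 genes of the lipid droplet and lipolysis 11 were lower and 3 higher, and of 15 adipocyte receptors 7 were lower and 1 higher, with 12 lower by Cy3 alone. These counts compare with 14.4% lower over all genes. Plin1, which coats the adipocyte droplet, stood at 0.23 and 0.16 in adult liver, against 5.79, 5.73 and 5.73 in white adipose tissue, and was well above background on no adult liver array. Its change was -5.56 ± 0.38 by the ratio and -9.32 ± 0.49 by Cy3 alone, and its Cy5 followed the sample (Cy5 difference -5.03). Retn, the hormone resistin, stood at 0.34 and 0.08 in adult liver, against 3.58, 3.75 and 3.51 in white adipose tissue. Its change was -3.40 ± 0.24 by the ratio and -7.68 ± 0.49 by Cy3 alone, with a Cy5 difference of -5.40. Neither gene came near overlap. Cfd, or adipsin, was still well above background in adult liver, at 4.44 and 4.33, against 8.12, 8.08 and 8.42 in white adipose tissue (change -3.82 ± 1.04, limma adjusted p = 0.0053; Cy3 alone -7.27). Cavin1, a coat protein of caveolae, changed by -6.14, and the lipases Lipe and Pnpla2, which carry out lipolysis, by -1.96 (Cy3 alone -3.70) and -1.66. The adipokine list held 1 gene called higher in adult liver, the growth factor Fgf1 (3.82), but 3 were higher by Cy3 alone and 4 with the whole liver arrays, against 5 lower there. The droplet list held Cideb (5.01), Plin5 (2.81) and Cidea (2.14). Cidea rested on the choice of liver arrays, since the whole liver arrays of the same study gave a change of -2.83 against white adipose tissue, and its call was lost without adult liver array 1 (1.74) or 2 (2.53) and without white adipose array 2 (1.61) or 3 (1.81).

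The transcription factors of fat divided along the same line. Of 18 adipogenic factors 9 were called lower and 3 higher, with a median of -1.25. Over all genes 14.4% were called lower and 13.4% higher, so the count higher lay near that of all genes. Pparg, the receptor that drives adipocyte differentiation, stood at 1.66 and 1.81 in adult liver, against 3.52, 3.56 and 3.89 in white adipose tissue (change -1.92 ± 0.30, limma adjusted p = 2.4e-05). Ebf3, of the early B cell factor family, stood at -3.07 and -3.10 in adult liver, against 1.86, 1.84 and 2.26 in white adipose tissue (change -5.07 ± 0.18, limma adjusted p = 6e-14). Zfp521 changed by -4.07 and Tbx15, a T-box factor known from fat and muscle, by -3.18. The 3 factors called higher are ones that liver also uses: Klf15 (3.39), Cebpa (1.47, limma adjusted p = 0.038) and Rxra (1.30). The call of Cebpa was lost without adult liver array 1 (1.60) or 2 (1.34) and without white adipose array 1 (1.57) or 2 (1.11), and the whole liver arrays gave -0.58. Among receptors Ptger3, a prostaglandin receptor, changed by -3.67, Ffar2, for short chain fatty acids, by -3.31 (Cy3 alone -4.75) and Hcar2, for niacin and hydroxybutyrate, by -3.01. Adora1, an adenosine receptor, went the other way (3.30), but with the whole liver arrays it changed by 0.97 and was not called, like Rxra (0.68).

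Where liver and fat are known to use different members of a protein family, the 2 members changed in opposite directions in most cases. Of 20 such pairs 19 had both genes tested, and in 15 the liver member was called higher and the other lower. The liver member was called higher in 18 pairs, the other member lower in 17 and higher in none. By Cy3 alone 14 pairs met both conditions. The pairs were picked with knowledge of liver and fat physiology, so they are a description and not a sample of all families.

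Transport and binding gave the widest gaps. The fatty acid binding protein of liver, Fabp1, whose promoter is printed with both motifs, stood at 9.18 and 9.43 in adult liver, against 2.79, 0.06 and 1.60 in white adipose tissue (change 7.82 ± 0.81, limma adjusted p = 1.2e-07). Its counterpart of adipocytes, Fabp4, stood at 2.65 and 3.14 in adult liver, against 8.06, 7.99 and 8.26 in white adipose tissue (change -5.21 ± 0.79, limma adjusted p = 1.7e-05). The 2 genes thus mirrored each other with no overlap between tissues. The glucose transporter of hepatocytes, Slc2a2, stood at 7.97 and 8.37 in adult liver, against 0.11, 0.02 and -0.13 in white adipose tissue, where no array was well above background (change 8.17 ± 0.49, Cy3 alone 6.19). The insulin-responsive transporter Slc2a4 stood at 0.53 and 0.08 in adult liver, against 4.78, 3.72 and 6.00 in white adipose tissue (change -4.53 ± 0.44, limma adjusted p = 5.1e-08). Slc2a4 is also the transporter of skeletal muscle. For glycerol, Aqp9 changed by 4.71 and Aqp7 by -2.45 (-1.49 without white adipose array 3), and for fatty acid entry Slc27a5 changed by 5.22 (Cy3 alone 9.15) and Slc27a1 by -2.82. The lipases that act on lipoproteins were split likewise, with 3.34 for Lipc, the hepatic lipase, and -6.97 for Lpl.

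Metabolic enzymes followed the same order with smaller falls. In glucose use, pyruvate kinase gave 4.06 for Pklr and -1.44 for Pkm. Glycogen synthase gave 4.56 for Gys2 and -2.04 for Gys1, and glycogen phosphorylase 1.57 for Pygl and -1.55 for Pygm. Pygl lost its call without adult liver array 1 (1.69) or 2 (1.45) or white adipose array 1 (1.41) or 2 (1.39), and Pygm without adult liver array 1 (-1.52) or 2 (-1.59) or white adipose array 1 (-1.28) or 3 (-1.02), with -2.36 without white adipose array 2. Methionine adenosyltransferase gave 6.00 for Mat1a (Cy3 alone 8.13) and -1.56 for Mat2a. Of these second members Pkm and Mat2a were not called by Cy3 alone, with changes of -0.86 and -0.44, and Pkm (-0.84) was not called with the whole liver arrays. The nuclear receptors Ppara (2.79) and Pparg (-1.92) and the droplet proteins Cideb (5.01) and Cidec (-1.82, Cy3 alone -4.39) completed the pattern. Pairs that broke it were few. Scd1, the stearoyl-CoA desaturase of both tissues, stood at 4.65 and 4.25 in adult liver, against 4.25, 4.44 and 4.09 in white adipose tissue, and did not pass the test (0.19, limma adjusted p = 0.78), while Scd2 changed by -3.83. The second members Cpt1b (-0.98), Gpd1 (-0.33) and Tfrc (-0.05) were not called, although their partners Cpt1a (2.38), Gk (3.14) and Tfr2 (6.11) were higher. Irs1, an insulin receptor substrate, changed by -1.65 and its partner was not tested.

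**Figure D4:**
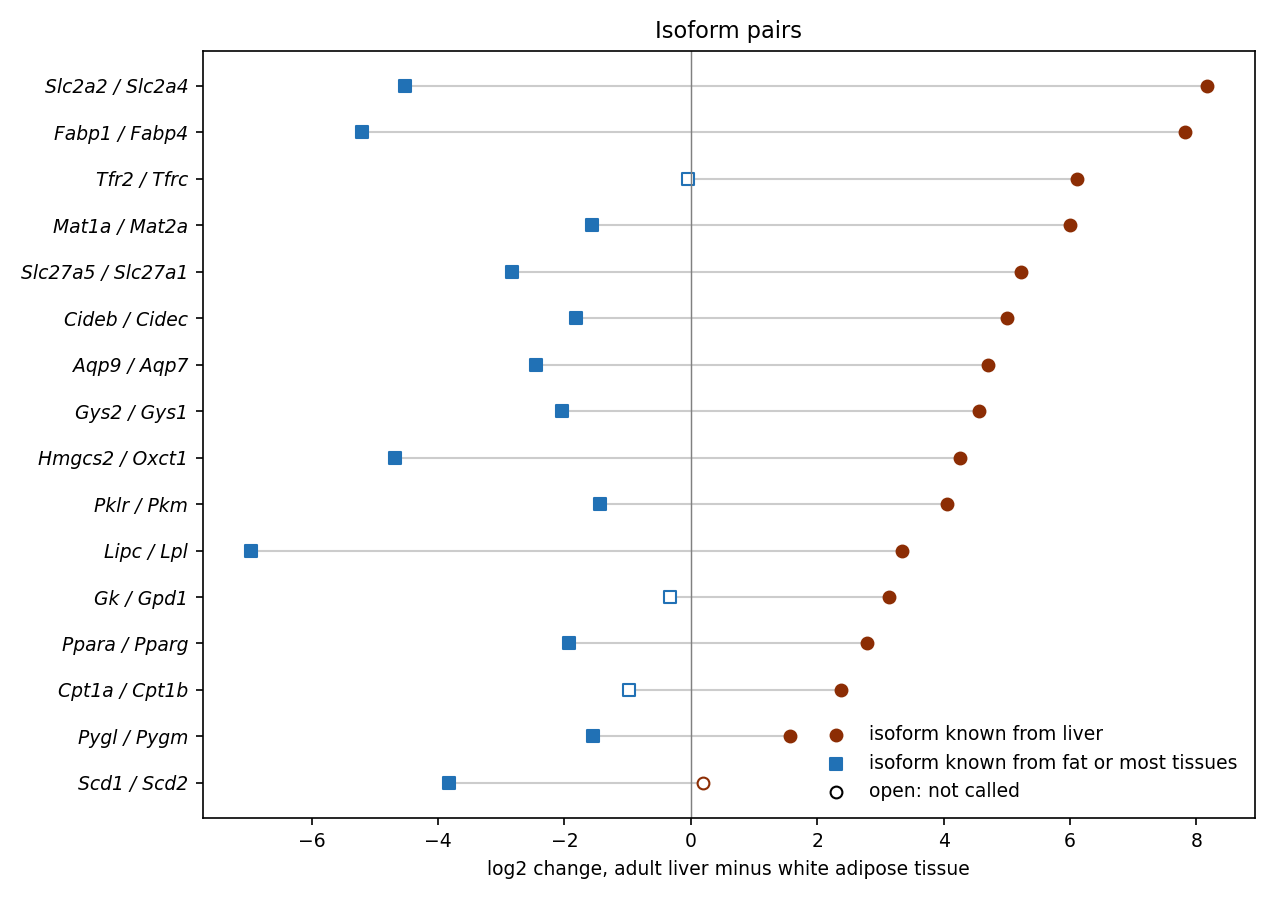
Log2 change, adult liver minus white adipose tissue, of 16 of the pairs of genes from the same family or step. Circles are the member known from liver and squares the member known from fat or most tissues, and open symbols were not called. In 12 of the pairs drawn a filled circle lies right of 0 and a filled square left of it, and the open symbols belong to Scd1, Tfrc, Gpd1 and Cpt1b.

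The insulin-like growth factor genes were divided between the tissues, with 5 of 12 called higher and 6 lower, against 13.4% and 14.4% of all genes. With the whole liver arrays 3 were higher. Igf1, the growth factor that liver supplies to the blood, stood at 5.08 and 5.04 in adult liver, against 3.34, 3.25 and 3.85 in white adipose tissue (change 1.58 ± 0.37, limma adjusted p = 0.0017). Igfbp2 changed by 4.68, and Igfals, which stabilizes circulating Igf1, by 3.21. Igf2, the fetal growth factor, stood at -1.98 and -1.87 in adult liver, against 3.75, 3.66 and 3.83 in white adipose tissue (change -5.67 ± 0.17, limma adjusted p = 1.3e-14; Cy3 alone -8.05). The receptor Igf1r changed by -2.49 and the binding protein Igfbp5 by -3.17. Igfbp1, which the fasting liver secretes, was called higher by 3.19, but white adipose array 2 stood at 0.10 while arrays 1 and 3 stood at 3.86 and 4.35. Without array 2 the change of Igfbp1 was 1.86, with array 2 alone it was 5.87, and without adult liver array 2 it was not called (2.71).

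Genes of the Hox clusters, which mark position along the body axis, were either lower in adult liver or not called. Of 26 Hox genes 13 were called lower and none higher, against 14.4% lower and 13.4% higher over all genes. Among the 26, 11 were above background on no adult liver array. At an unadjusted p below 0.05 limma likewise gave 0 higher and 14 lower, and Cy3 alone gave 0 higher and 16 lower, while with the whole liver arrays 8 were called lower. Hoxc9 stood at -4.47 and -4.55 in adult liver, against 0.37, 0.71 and 0.42 in white adipose tissue (change -5.02 ± 0.31, limma adjusted p = 6.7e-11). Hoxa7 changed by -3.11 and Hoxc6 by -2.87. The summed Cy3 intensity of the 26 genes was 2260 and 843 in adult liver, against 16661, 17273 and 15194 in white adipose tissue.

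Extracellular matrix genes had the lowest median ratio change of any list (-3.56, against -3.38 for the skeletal muscle markers), though by Cy3 alone the muscle median was lower (-4.02 for matrix, -4.44 for muscle). Of 27 matrix genes 24 were called lower and 1 higher, Dpp4 (1.61), a cell surface peptidase that hepatocytes also carry. The call of Dpp4 was lost without adult liver array 1 (1.43) or 2 (1.80), without white adipose array 1 (1.57) or 2 (1.31), and with the replicate number as a block (limma adjusted p = 0.0523). The summed Cy3 intensity of the matrix genes was 28553 and 30273 in adult liver, against 808841, 762788 and 950541 in white adipose tissue. Postn, the matrix protein periostin, changed by -6.70 ± 0.31 (limma adjusted p = 1.7e-12). Genes of smooth muscle, pericytes and stellate cells were split, with 8 of 11 lower and 2 higher, against 14.4% and 13.4% of all genes. Cspg4 and Mcam, both markers of pericytes, changed by -4.75 and -4.08, while Lrat, which stores vitamin A in hepatic stellate cells, stood at 3.44 and 4.23 in adult liver, against 0.17, 0.04 and 0.80 in white adipose tissue (change 3.50 ± 0.24, limma adjusted p = 3.9e-10). Reln, also known from stellate cells, changed by 3.00.

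Cd5l, Clec4f, Clec4g and Stab2, markers of cells that line or patrol the liver sinusoid, were called higher in adult liver. The lists they come from were mixed, and Lyve1, also known from the sinusoid, was called lower. Cd5l, a secreted protein of macrophages, stood at 6.84 and 7.32 in adult liver, against 0.28, 0.02 and 0.81 in white adipose tissue, and Clec4f, a lectin of Kupffer cells, at 5.68 and 5.69, against 0.12, 0.01 and 0.28. Of 17 macrophage genes 6 were called higher and 1 lower, against 13.4% and 14.4% of all genes. The gene lower was Trem2 (-1.40), a receptor of lipid-associated macrophages, which was not called without adult liver array 1 (-0.98). Clec4g, a lectin of sinusoidal endothelium, changed by 5.54 and Stab2, a scavenger receptor of the same cells, by 3.51. Of 18 endothelial genes 3 were called higher and 4 lower by the ratio, but 13 lower by Cy3 alone and 11 with the whole liver arrays, so that the count higher lay near the 13.4% of all genes. Without adult liver array 1 only 1 endothelial gene was lower, without array 2 only 2, and without white adipose array 3 limma called none of them lower at the adjusted threshold. Lyve1, a hyaluronan receptor, was among the 4 (-2.33) and lost its call without adult liver array 1 (-1.90) or 2 (-2.76) and without white adipose array 3 (-1.35). Endothelial genes therefore had no single direction by the ratio. Of 14 lymphocyte genes 5 were called higher by the ratio, against 13.4% of all genes, 3 without adult liver array 2 and 2 by Cy3 alone. Cd74, the invariant chain of antigen presentation, stood at 1.84 and 2.31 in adult liver, against -1.90, -1.52 and -1.93 in white adipose tissue. Of 8 nerve and Schwann cell genes 5 were lower, against 14.4% of all genes, led by S100b (-4.40), which adipocytes are also known to express. In the bile duct list 3 of 9 genes were higher, against 13.4% of all genes, and 1 without adult liver array 2. Onecut1 (4.69), a factor that hepatocytes share, led this list, while Epcam changed by -0.52 and Sox9 by -0.02 without a call. In the mesothelium list 2 of 10 were higher, the keratins Krt18 (4.55) and Krt8 (4.46), which hepatocytes contain, a count also near that of all genes, and Wt1, a defining mesothelial factor, was above background on no white adipose array.

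Markers of skeletal muscle moved with the white adipose arrays, and unevenly. Of 15 such genes 11 were called lower in adult liver and none higher, also at an unadjusted p below 0.05, and 4 of the 15 had a Cy5 that followed the sample by at least 2 log2 units. The summed Cy3 intensity of the 15 was 2451 and 1924 in adult liver, against 931751, 32477 and 403988 in white adipose tissue. Myl1 had Cy3 intensities of 53 and 11 in adult liver, against 132760, 6558 and 70684 in white adipose tissue. Acta1, skeletal muscle actin, had 100 and 84 in adult liver, against 172952, 4110 and 70094 in white adipose tissue, and Ckm, muscle creatine kinase, 79 and 20, against 11831, 245 and 3965. White adipose array 2 was thus the lowest of the 3 for each of these 3 genes, and it stayed above adult liver. With white adipose array 2 alone in place of all 3, 6 of the 15 were called lower and 1 higher, with changes of -4.05 for Acta1 in place of -6.10 and -0.01 for Ckm in place of -3.17 (Cy3 alone -4.44), and Ckm also lost its call without white adipose array 3 (-2.30). On the same basis the matrix list had 22 called lower in place of 24, the Hox list 11 in place of 13, the lipid droplet list 8 in place of 11 and the adipogenic factors 9 in both cases. The adipocyte receptors had 4 lower in place of 7, the adipokines 4 in place of 6, the smooth muscle and stellate list 5 in place of 8, the nerve list 3 in place of 5 and the endothelial list 0 in place of 4. The urea cycle, amino acid, phase II and bile acid lists still had every member called higher. Pygm, the muscle glycogen phosphorylase among the pairs above, changed by 0.05 on that basis, in place of -1.55. Aqp7 (-0.91), Hcar2 (-2.11), Cfd (-3.69), Pkm (-0.90) and Lyve1 (-0.83) were not called on it, Ptger3 (-2.19) and Kcnk3 (-1.36) were called with smaller falls, and Plin5 (4.32) with a larger rise. The part of muscle RNA in the other results was not tested.

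**Figure D5:**
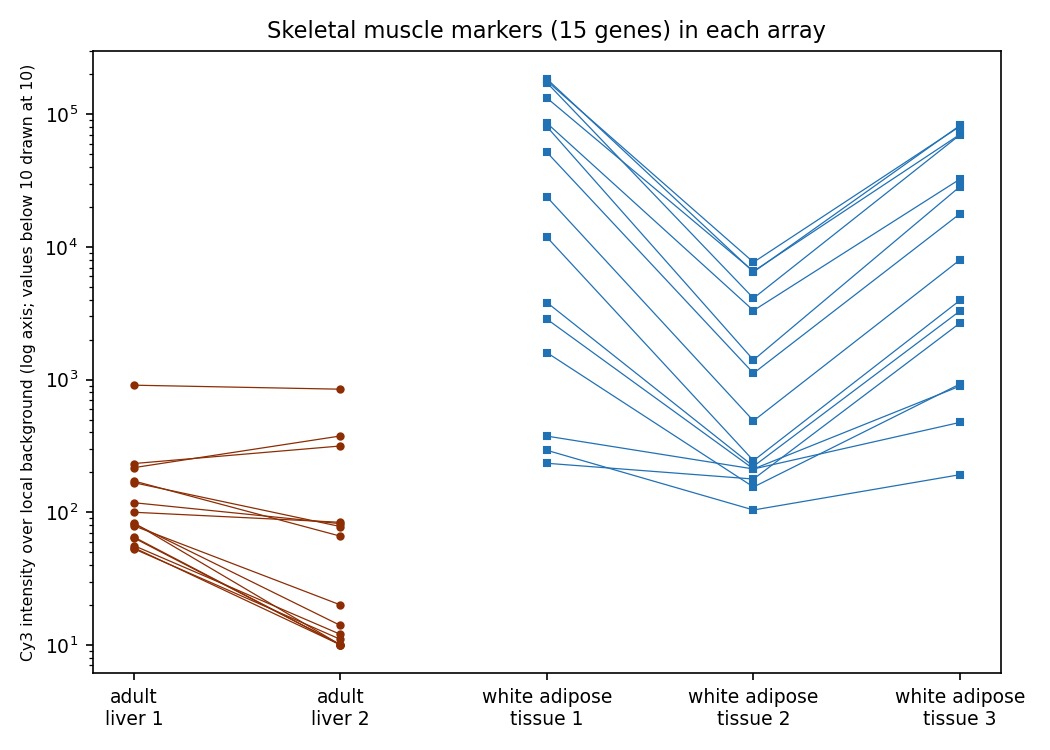
Cy3 intensity over local background (log axis, with values below 10 drawn at 10) of the 15 skeletal muscle markers on each array, with circles for adult liver and squares for white adipose tissue. Each line joins the values of 1 gene within a tissue. White adipose arrays 1 and 3 lie far above array 2 for most genes, with summed intensities of 931751 and 403988, against 32477.

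Brown fat markers were also uneven in white adipose tissue. Of 9 genes 3 were called lower in adult liver, Cox8b (-4.57), Cox7a1 (-2.32) and Kcnk3 (-2.15), and 1 higher, the elongase Elovl3 (3.23, Cy3 alone 5.06). Over all genes 14.4% were called lower and 13.4% higher. Ucp1, the uncoupling protein that defines brown fat, stood at 0.06 and 0.02 in adult liver, against 3.88, 0.44 and 0.31 in white adipose tissue, and was not called (-1.50, limma adjusted p = 0.17). Its Cy3 intensity was 4934, 544 and 121 on the white adipose arrays, so array 1 stood apart. Cox8b and Cox7a1 are also mitochondrial genes of muscle. No gene of the 10 pancreatic acinar markers, the 14 immediate early and stress genes or the 5 sex-linked genes was called by the ratio in limma, and at an unadjusted p below 0.05 these lists held 1 gene higher and 1 lower, both stress genes. By Cy3 alone 1 stress gene was called. Of the erythroid genes 1 of 6 was higher, a count near the 13.4% of all genes: Alas2 (1.58), which acts in haem synthesis. Xist, the RNA of the inactive X chromosome, had Cy3 intensities of 49 and 6 in adult liver, against 209, 1781 and 102 in white adipose tissue. The Y-linked genes Ddx3y and Eif2s3y were well above background on all 5 arrays, and white adipose array 2 thus carried both kinds of signal.

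Lgr5, the Wnt target that gives the wider study its subject, was called higher in adult liver by the ratio. It stood at 3.44 and 3.35 in adult liver, against 0.91, 0.13 and 1.75 in white adipose tissue (change 2.46 ± 0.33, limma adjusted p = 4.7e-06). Its Cy3 intensities were 597 and 335 in adult liver, against 418, 262 and 268 in white adipose tissue, so they overlapped, and by Cy3 alone the change of 0.88 was not called. With the whole liver arrays the ratio changed by -0.49. Axin2, another Wnt target, was above background on none of the 5 arrays. Glul, the glutamine synthetase of hepatocytes around the central vein, changed by 0.79 and was not called (limma adjusted p = 0.092), with 4.10 and 5.01 in adult liver, against 3.81, 3.71 and 3.77 in white adipose tissue.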

How the data were processed

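Each of 28 two-colour Agilent arrays (45018 spots) carried tissue RNA in Cy3 and a common reference RNA in Cy5. The deposited scanner files give the intensity of each spot as the authors obtained it from Agilent Feature Extraction, version 10.5.1.1 per the file headers and 8.5.1.1 per the submitters' processing notes. The deposited log10 ratio (Cy5 over Cy3) was background subtracted and lowess dye normalized, per the file headers, and served as an alternative. The log2 ratio used here was computed from the deposited median intensities as Cy3 over Cy5.

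Intensities were corrected with normexp (offset 50) and loess within each array in limma 3.58.1 (R 4.3.3). Control spots (1639 per array) had weight 0 and spots marked as outliers (0.688%) were left out. Tests covered probes that cleared the background in Cy3 on 2 or more of the 28 arrays, with the brightest probe standing for a gene, which left 21047 genes. Of these, 16786 were named by a match to RefSeq and 4261 keep the name in the files. All 13 groups were fitted together with limma's lmFit and eBayes, and a called gene had both an adjusted p (Benjamini-Hochberg) under 0.05 and a log2 change of 1 or more. The number of arrays limits the precision. In data simulated for this comparison over 21047 genes, a planted change of 1 log2 unit was called in 46.3% of genes, of 2 in 92.5% and of 3 in 100%, and 6 unchanged genes were called. Figures used Python 3.11.15, pandas 2.3.3 and matplotlib 3.10.9.

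The comparison and the gene lists were chosen with earlier results of these data known. The genes named are, of the called genes with a matched symbol, no overlap between the tissues' arrays and a higher tissue well above background throughout, the 12 that rose most and the 12 that fell most, then the 3 largest rises and falls of each list, all genes of the family pairs, the tissue markers, Alb, Lgr5, Axin2, Glul and the sex-linked genes. Arg1, Ahsg, Cyp7a1, Lipe, Pnpla2, Igf1, Postn, Ckm, Ucp1 and some genes given beside a list fall outside that rule and were chosen after their values were seen. Replicate numbers were taken as names only, since same-numbered arrays did not deviate together (correlations of 0.011 and -0.019). Alternatives changed the background correction, the normalization, the filters, the probe rule, the threshold, the blocks, the arrays left out and the liver arrays used. Some items are not reported here. Apart from the muscle levels given for the largest falls, the other groups of the study entered only the estimate of the spread and the alternative with whole liver.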

Additional observations from a re-analysis of the deposited data

Results flagged for a closer look

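The Cy5 channel, which held the same reference RNA on every array, gave a signal that differed between the tissues. In 136 genes it was at least 2 log2 units apart in the same direction as Cy3. For Alb the Cy5 difference was 6.87 log2 units, adult liver minus white adipose tissue, and for Adipoq it was -5.08. The cause was not tested.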

How the results depend on the processing

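The count of 5859 called genes was within 1.5 times of itself under every alternative except those that set the threshold. It was 2759 (1492 higher, 1267 lower) when tested against a log2 change of 1 with treat, 9348 (4474 and 4874) with no fold minimum and 2375 (1336 and 1039) at a log2 change of at least 2. When the whole liver arrays took the place of adult liver, 4330 genes were called, 1875 of them higher. A similar count did not mean the same genes. Of the 4330, 3599 were among the 5859, and 177 of the 5859 changed in the opposite direction. Of the family pairs, 9 met both conditions with treat and 8 at a log2 change of at least 2, in place of 15. Leaving out 1 array at a time gave 5545 to 6019 called genes, 2663 to 2907 higher and 2693 to 3262 lower, and 14 to 15 pairs. With the replicate block 5886 genes were called (2853 higher and 3033 lower), and among the genes named it ended the call of Dpp4. By Cy3 alone 38.6% of calls were higher, in place of 48.2%. Without background correction it was 43.6%.

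Some named genes changed direction. By Cy3 alone Acadvl changed by 1.42 and Apoc1 by 3.41. With whole liver Apoc1 changed by 1.79, Cebpa by -0.58, Cidea by -2.83, Lgr5 by -0.49 and Xist by 3.48. With Agilent's log ratio Epcam changed by 1.30 and Wt1 by 1.34, and with white adipose array 2 alone, an alternative chosen after seeing the data, Pygm changed by 0.051. The causes were not tested. Of 138 named genes that were called, 108 held call and direction in all 24 alternatives. Not all of these could end a call. Aquantile after loess left the ratios as they were, with the same 5859 genes called, and dropping the fold minimum could only add calls. Genes below background in a tissue are given without a fold bound, since a floor at percentile 5 in place of the lowest signal moved 25 such bounds by more than 1 SD between replicates and 15 by less.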

Other observations

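The whole liver arrays of the study, which stood for liver only in an alternative, differed from the adult liver arrays in some fat genes. Cidec, a droplet protein of adipocytes, stood at log2 ratios of 5.87 and 5.91 in adult liver and averaged 1.64 in whole liver. Cfd, the protease adipsin, stood at 4.44 and 4.33 in adult liver and averaged 1.31 in whole liver. The liver pyruvate kinase Pklr stood at 3.95 and 3.96 in adult liver and averaged 1.15 in whole liver. The difference between these liver groups was not tested.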
